A study of Rattus norvegicus with 6 samples.

Results

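The unfolded protein response and the integrated stress response were examined in PC12 cells, which were established from a pheochromocytoma of the rat adrenal medulla, after knockdown of NQO1, a quinone reductase of the cytosol. Cells transfected with short interfering RNA against NQO1 (siNQO1, 3 libraries) were compared with cells transfected with a nontargeting control (siCtrl, 3 libraries), and both groups were transfected with a Lipofectamine reagent, with no other treatment named in the sources. The paper describes siRNA, whereas the labels of the sequenced samples name an shRNA and a control plasmid, and both sources give the same grouping into knockdown and control. The paper calls the libraries biological replicates without saying that each came from its own culture, so the p-values rest on the spread among these libraries, and an exact permutation test of 3 against 3 could not go below a two-sided p of 0.1. Polyadenylated RNA was sequenced as a stranded library, and the deposited values are reads per gene and FPKM, which is reads scaled to transcript length and to the mapped reads of the library.

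Members were 38 gene symbols of the 2 stress responses, taken by symbol from a count table of 18746 genes and from the FPKM table. They fell into an ATF4 arm of 14 symbols, an XBP1 arm of 10 and an ATF6 arm of 14. Nupr1 had 2 gene IDs, so the members filled 39 rows. Of these, 36 passed the filter on low counts and were tested. The exceptions were both Nupr1 rows (a stress-induced chromatin protein, 0 to 4 reads per library) and Derl3 (a derlin of the degradation channel, 0 to 1 reads per library).

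Secretory and membrane proteins fold in the endoplasmic reticulum (ER). Unfolded protein there is sensed by the kinases PERK and IRE1 and by ATF6. IRE1 splices the Xbp1 transcript, ATF6 is cut in the Golgi to release a transcription factor, and PERK phosphorylates the initiation factor eIF2, which lowers protein synthesis overall and raises translation of ATF4. GCN2, which senses uncharged tRNA, acts on the same factor. ATF6 and XBP1 are known to drive chaperones and the machinery of ER-associated degradation, and ATF4 to drive amino acid and redox genes. Splicing of Xbp1, cleavage of ATF6 and translation of Atf4 are not seen in reads per gene, so the values below are RNA levels of the sensors, factors and targets.

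Nqo1 itself was checked first. It had 80.8, 75.2 and 77.7 FPKM in siNQO1, against 369, 321 and 345 FPKM in siCtrl, in replicates 1, 2 and 3 of each group, the order used for all library values here. The knockdown libraries lay below all controls, and the log2 fold change of siNQO1 over siCtrl was -2.13 ± 0.066 (SE), adjusted p = 1.54e-06 in edgeR. Libraries held 28873824 to 39467230 reads in genes. In a principal component analysis siCtrl replicate 2 stood apart, with a first component of -5.08 against -19.6 to -12.1 in siNQO1 and 20.7 and 32.2 in the other siCtrl libraries. The labelled cell type was checked against 14 chromaffin and PC12 markers, of which 11 were in the tables. Except for Scg2, which encodes a granin, each of them stayed at or below 0.43 FPKM in every library, and their sum without Scg2 was 0.52 to 0.55 FPKM in siNQO1 and 0.67 to 0.72 FPKM in siCtrl. Th, the rate-limiting enzyme of catecholamine synthesis, did not exceed 0.09 FPKM, Ddc was at 0 in all siNQO1 libraries, and Phox2a was at 0 in all siCtrl libraries. By contrast 8 Schwann and glial markers summed to 517 to 522 FPKM in siNQO1 and 534 to 609 FPKM in siCtrl, with Sox10 at 202 and 218 FPKM on average in siNQO1 and siCtrl. In that list Pmp22 (log2 fold change 0.28, adjusted p = 0.0164) rose, and S100b (-0.45, adjusted p = 0.00329) fell. Scg2 fell too, at 112 FPKM in siNQO1 and 171 FPKM in siCtrl on average (adjusted p = 0.000836). The 5 fibroblast and endothelial markers in the tables summed to 47.1 to 50.4 FPKM in siNQO1 and 51.5 to 52.5 FPKM in siCtrl, and the 4 blood cell markers to 0.94 to 1.38 FPKM in siNQO1 and 0.85 to 1.49 FPKM in siCtrl. The fibroblast and endothelial sum is mostly Pdgfra, which averaged 46.7 FPKM in siNQO1 and 50.7 FPKM in siCtrl. Col1a1 averaged 0.487 and 0.3 FPKM, and Tek 0.973 and 1 FPKM, in siNQO1 and siCtrl. Apart from Scg2 the defining markers of the labelled line are therefore near 0, and the cells are called PC12 here by their label alone. The part of these marker changes in the results below was not tested, and in bulk RNA fewer cells of a type and less RNA per cell cannot be told apart.

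Across the members, knockdown of NQO1 was followed by small changes in both directions. Dnajc3, Hspa5 and Herpud1 rose, and Atf5, Creld2, Trib3, Derl1, Ern1 and Ppp1r15b fell, at an adjusted p under 0.05 over 12420 genes in edgeR. The other 27 members were not called. In the tables the called genes are Dnajc3 (ENSRNOG00000010352, chromosome 15), Hspa5 (ENSRNOG00000018294, chromosome 3), Herpud1 (ENSRNOG00000018796, chromosome 19), Atf5 (ENSRNOG00000020060, chromosome 1), Creld2 (ENSRNOG00000004659, chromosome 7), Trib3 (ENSRNOG00000007319, chromosome 3), Derl1 (ENSRNOG00000005551, chromosome 7), Ern1 (ENSRNOG00000012864, chromosome 10) and Ppp1r15b (ENSRNOG00000028493, chromosome 13). The largest change was that of Atf5, which fell by 31.1%, and the largest rise was that of Dnajc3, by 25.2%. None of the 36 passed the 2-fold threshold, against 0.435% of all genes tested, while 12 of 36 members had an unadjusted p under 0.05 (4 higher and 8 lower), against 29.0% of all genes tested. Over all genes tested 5.27% were called higher and 7.38% lower, so the 3 of 36 higher members (8.33%) and 6 of 36 lower members (16.7%) are to be read against these shares. FPKM did not overlap between the groups for 15 of 36 members, 5 above and 10 below siCtrl, against 33.6% of all genes tested. The median log2 fold change was 0.00 for the members and 0.01 for all genes tested.

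**Figure D1:**
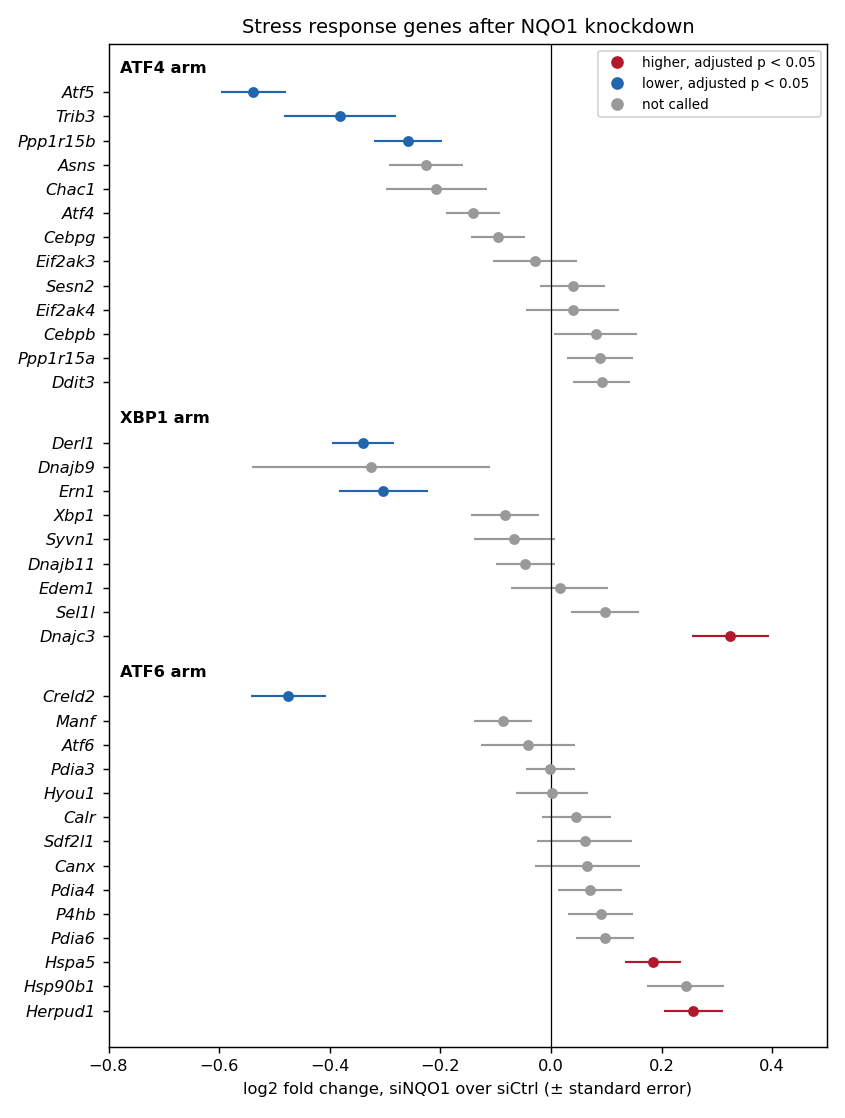
Log2 fold change of siNQO1 over siCtrl (x axis, with its standard error as a bar) for the 36 members tested, grouped by arm and ordered by value from edgeR on 3 libraries a group. The 3 red points rose, the 6 blue points fell, and the 27 gray points were not called. The ATF4 arm holds blue points and no red ones, and the other arms hold both.

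The called genes were then counted by arm. In the ATF4 arm 0 of 13 members rose and 3 fell, in the XBP1 arm 1 of 9 rose and 2 fell, and in the ATF6 arm 2 of 14 rose and 1 fell. The count of 0 rises in the ATF4 arm by edgeR was also 0 at an unadjusted p under 0.05, and 0 by DESeq2 and limma voom. Over all genes tested 5.27% were called higher and 7.38% lower by edgeR, and 1698 of 12420 were higher at an unadjusted p under 0.05. At such shares a count of 0 among 13 members is not read as a trait of the arm. Median log2 fold changes were -0.096 in the ATF4 arm, -0.066 in the XBP1 arm and 0.063 in the ATF6 arm. These medians are descriptions, and the difference between arms was not tested. Library by library, the median gene of the ATF4 arm lay -0.092, -0.105 and -0.091 from the siCtrl mean on the log2 CPM scale in siNQO1, and 0.041, -0.055 and 0.014 in siCtrl. All knockdown libraries were thus below all controls in the ATF4 arm. In the XBP1 arm these values were -0.049, -0.128 and -0.015 in siNQO1 and 0.032, -0.043 and -0.027 in siCtrl. In the ATF6 arm they were 0.067, 0.074 and 0.058 in siNQO1 and 0.058, -0.081 and 0.009 in siCtrl. The groups met or overlapped in these 2 arms, and siCtrl replicate 2 was the lowest control in each of the 3 arms and also over all genes (-0.023).

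**Figure D2:**
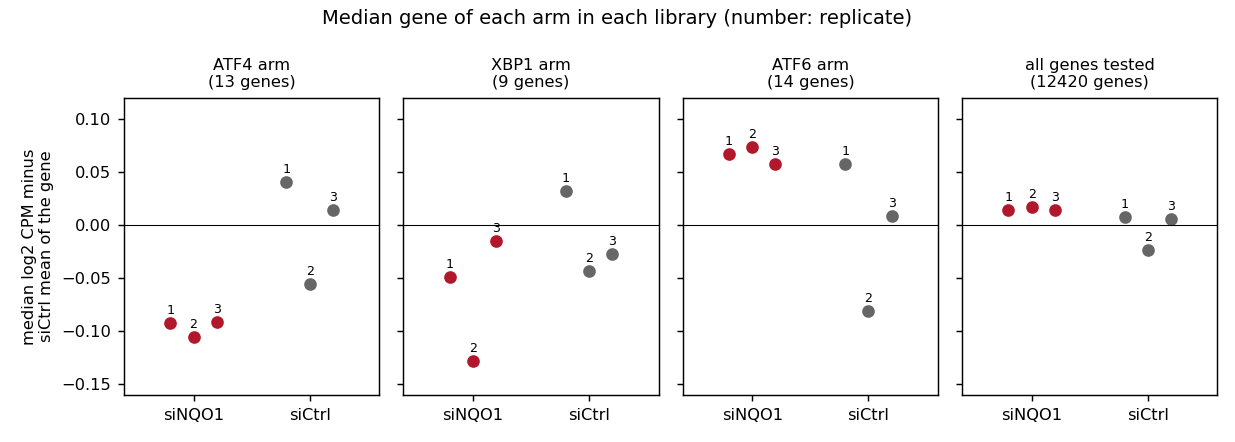
Median over the genes of each arm, and over all 12420 genes tested, of log2 CPM minus the siCtrl mean of the gene (y axis), 1 point per library with its replicate number. The 3 siNQO1 libraries (red) lie between -0.105 and -0.091 in the ATF4 arm, below every siCtrl library (gray), and siCtrl replicate 2 is the lowest control in every panel.

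Short elements that these factors are known to bind were searched in the promoters of the members, to show which targets carry them. RefSeq windows on build GRCr8, from 250 bases before to 50 after each gene's start, were found for 31 of the 38 symbols, with 2 windows for Hyou1. No window was used for Nupr1, Ern1, Derl1, Atf6, Pdia3, Pdia6 and Manf. The ER stress response element (ERSE) was searched as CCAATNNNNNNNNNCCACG, its form II as ATTGGNCCACG, the XBP1 element (UPRE) as TGACGTGG and the ATF4 element (CARE) as TGATGCAA, on both strands. Of all 33469 windows 0.0657% held an ERSE, 0.0508% form II, 0.595% the UPRE and 0.795% the CARE. An ERSE was in 8 members, of which 3 belong to the XBP1 arm and 5 to the ATF6 arm, and these 8 are among the 22 windows with one in the whole table. The matches are printed below from CCAAT, the letters bound by NF-Y, to CCACG, the letters bound by ATF6 and XBP1, with the fixed letters in capitals. Those of Derl3, Calr and Creld2 and the second of Hsp90b1 were read on the strand opposite to the gene.
Xbp1: CCAATcgcagacggCCACG
Dnajc3: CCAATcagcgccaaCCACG
Derl3: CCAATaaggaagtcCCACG
Hspa5: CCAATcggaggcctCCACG
Hsp90b1, first: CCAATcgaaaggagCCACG
Hsp90b1, second: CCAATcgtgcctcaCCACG
Calr: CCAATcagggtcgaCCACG
Canx: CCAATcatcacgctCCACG
Creld2: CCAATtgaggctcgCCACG
Among these genes Dnajc3 and Hspa5 rose and Creld2 fell, so the same element stood before called genes of both directions, and Derl3 was hardly read at all. Form II was in Dnajb11 and Herpud1 with 1 match each and in Hyou1 with 2, and the UPRE was in Hyou1 alone, where it overlapped the farther form II match. The CARE was in Chac1, Ppp1r15b and Herpud1. A wider form, TGATGNAA, which includes every CARE and was chosen after the values were seen, was in 3.98% of all windows and added Trib3 with TGATGtAA. A match is a description of the letters and no measure of binding. The members were listed as genes of these stress responses, and the elements are those that the factors are known to bind. The number of members with an element is therefore no independent result, and it was not tested.

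Whole windows are printed for called members with an element, since they show where the element lies in relation to the start, which follows the first 250 bases of each run. They are Hspa5 (chr3:38452766-38453065, plus strand, ERSE in capitals), Dnajc3 (chr15:102432417-102432716, plus strand, ERSE), Creld2 (chr7:121789134-121789433, plus strand, ERSE on the opposite strand), Herpud1 (chr19:10614658-10614957, minus strand, CARE on the opposite strand and then form II) and Ppp1r15b (chr13:47129750-47130049, plus strand, CARE).
Hspa5: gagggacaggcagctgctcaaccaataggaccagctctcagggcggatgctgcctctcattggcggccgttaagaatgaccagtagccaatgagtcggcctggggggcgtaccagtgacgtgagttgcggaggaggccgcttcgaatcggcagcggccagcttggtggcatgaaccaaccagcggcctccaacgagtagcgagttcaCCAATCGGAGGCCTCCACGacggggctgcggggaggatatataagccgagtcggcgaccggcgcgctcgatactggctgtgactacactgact
Dnajc3: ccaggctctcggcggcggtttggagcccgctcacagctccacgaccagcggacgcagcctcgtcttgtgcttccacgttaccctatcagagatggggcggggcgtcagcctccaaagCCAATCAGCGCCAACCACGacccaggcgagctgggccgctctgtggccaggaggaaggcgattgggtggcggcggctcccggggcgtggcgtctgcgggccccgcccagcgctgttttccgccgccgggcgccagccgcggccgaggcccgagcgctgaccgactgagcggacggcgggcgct
Creld2: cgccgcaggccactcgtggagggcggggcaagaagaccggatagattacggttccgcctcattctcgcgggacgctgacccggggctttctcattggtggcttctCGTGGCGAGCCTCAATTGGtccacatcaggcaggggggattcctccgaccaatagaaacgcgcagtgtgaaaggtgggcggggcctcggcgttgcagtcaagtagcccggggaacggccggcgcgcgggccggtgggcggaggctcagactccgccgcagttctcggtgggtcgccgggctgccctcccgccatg
Herpud1: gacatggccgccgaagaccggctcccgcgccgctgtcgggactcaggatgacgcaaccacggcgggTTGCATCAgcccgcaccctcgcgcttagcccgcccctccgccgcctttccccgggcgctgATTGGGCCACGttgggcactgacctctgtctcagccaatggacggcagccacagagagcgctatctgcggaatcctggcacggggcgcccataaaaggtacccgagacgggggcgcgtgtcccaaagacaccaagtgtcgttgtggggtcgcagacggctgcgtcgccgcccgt
Ppp1r15b: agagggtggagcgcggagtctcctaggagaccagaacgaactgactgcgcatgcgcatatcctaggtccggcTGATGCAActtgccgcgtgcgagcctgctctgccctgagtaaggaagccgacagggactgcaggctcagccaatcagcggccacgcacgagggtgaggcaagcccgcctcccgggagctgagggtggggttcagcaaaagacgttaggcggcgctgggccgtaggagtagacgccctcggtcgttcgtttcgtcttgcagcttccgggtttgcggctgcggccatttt
The ERSE began 43 bases before the start in Hspa5, 133 in Dnajc3 and 145 in Creld2. In Herpud1 the CARE began at -184 and form II at -124, so the gene carries an ATF4 element and an ATF6 or XBP1 element.

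In the ATF4 arm the transcription factors were read first. Atf4, the factor at the center of the arm, had 239.6, 249 and 251 FPKM in siNQO1, against 288, 266 and 269 FPKM in siCtrl. Its siNQO1 libraries were all below the siCtrl libraries, at a log2 fold change of -0.14 ± 0.049 (SE), adjusted p = 0.0991, which did not pass the threshold. Atf5, a factor of the same family that is translated under eIF2 phosphorylation, had 96.8, 104 and 105 FPKM in siNQO1, against 153, 139.6 and 155 FPKM in siCtrl. It was lower in each knockdown library and fell, at a log2 fold change of -0.54 ± 0.059 (SE), adjusted p = 0.00145, the change with the smallest adjusted p among the members. Ddit3, which encodes the proapoptotic factor CHOP, had 142, 151 and 158 FPKM in siNQO1, against 147, 139.7 and 139.8 FPKM in siCtrl. The groups overlapped, with siNQO1 replicate 1 inside the range of the controls, and the log2 fold change was 0.092 ± 0.051 (SE), adjusted p = 0.276. The C/EBP factors that pair with ATF4 were not called, at 0.081 for Cebpb and -0.096 for Cebpg on the log2 scale, although Cebpg was below siCtrl in all siNQO1 libraries. Cebpg averaged 15.1 ± 0.17 FPKM in siNQO1 and 16.3 ± 0.27 FPKM in siCtrl, and Cebpb 14.1 ± 0.481 FPKM in siNQO1 and 13.4 ± 0.386 FPKM in siCtrl (SD, n = 3 each), with overlap for Cebpb.

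Among the targets of ATF4 read here, Trib3 fell and the others were not called. Trib3, a pseudokinase that is known to restrain ATF4 and CHOP, had 4.03, 4.05 and 4.59 FPKM in siNQO1, against 5.91, 5.24 and 5.54 FPKM in siCtrl. All knockdown libraries were below all controls and the gene fell, at a log2 fold change of -0.38 ± 0.10 (SE), adjusted p = 0.0416. Asns, asparagine synthetase, had 21.4, 21.5 and 21.4 FPKM in siNQO1, against 26.1, 23.3 and 26.4 FPKM in siCtrl, and Chac1, which degrades glutathione, had 5.52, 5.46 and 5.96 FPKM in siNQO1, against 6.84, 6.58 and 6.33 FPKM in siCtrl. Neither was called, at -0.23 ± 0.066 (SE), adjusted p = 0.0589 for Asns and -0.21 ± 0.091 (SE), adjusted p = 0.174 for Chac1, although both were below siCtrl in every siNQO1 library. Sesn2, an inhibitor of mTORC1, was at 0.039 on the log2 scale (adjusted p = 0.70). In all, 7 of the 13 tested members had every siNQO1 library below every siCtrl library and none had every one above, against 19.4% below and 14.2% above among all genes tested.

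The phosphatase subunits and the kinases that act on eIF2 gave mixed values. Ppp1r15b, the constitutive subunit that directs phosphatase 1 to eIF2, had 6.32, 7.03 and 6.77 FPKM in siNQO1, against 8.16, 7.92 and 8.22 FPKM in siCtrl. It was lower in every knockdown library and fell, at a log2 fold change of -0.26 ± 0.061 (SE), adjusted p = 0.0292. Its stress-induced relative Ppp1r15a, known as GADD34, had 36.7, 38.1 and 38.1 FPKM in siNQO1, against 37.8, 33.2 and 36.1 FPKM in siCtrl. This gene overlapped between the groups and was at 0.089 on the log2 scale (adjusted p = 0.358). Eif2ak3, which encodes PERK, had 4.51, 4.75 and 4.40 FPKM in siNQO1, against 4.58, 4.64 and 4.84 FPKM in siCtrl, and Eif2ak4, which encodes GCN2, had 4.13, 4.47 and 4.56 FPKM in siNQO1, against 4.88, 4.04 and 4.02 FPKM in siCtrl. Both kinases overlapped between the groups, with log2 fold changes of -0.029 and 0.039 and adjusted p of 0.839 and 0.799.

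Around this arm, 2 further lists were read, to be set against the 5.27% called higher and 7.38% called lower over all genes tested. Of 12 genes for the other eIF2 kinases, eIF2 and its exchange factor, 1 rose and 2 fell, with a median log2 fold change of -0.055. Impact, an inhibitor of GCN2 activation, had 17.5, 17.8 and 15.4 FPKM in siNQO1, against 8.58, 12.0 and 9.14 FPKM in siCtrl, and rose at a log2 fold change of 0.78 ± 0.12 (SE), adjusted p = 0.00576. Eif2s1, which encodes the eIF2 subunit that the kinases phosphorylate, had 72.5, 72.4 and 69.3 FPKM in siNQO1, against 94.7, 118 and 100.4 FPKM in siCtrl, and fell at a log2 fold change of -0.54 ± 0.080 (SE), adjusted p = 0.00483. Eif2b5, the catalytic subunit of the exchange factor, averaged 19.2 ± 0.902 FPKM in siNQO1 and 23.2 ± 1.72 FPKM in siCtrl (SD, n = 3 each) and also fell (-0.26 ± 0.067, adjusted p = 0.0384). Values in brackets here and below are log2 fold changes with their SE. Of 25 other genes known as ATF4 targets 2 rose and 2 fell, with a median of -0.076. The mitochondrial one-carbon enzymes Mthfd2 (-0.45 ± 0.054, adjusted p = 0.00199) and Shmt2 (-0.42 ± 0.069, adjusted p = 0.00714) fell. The growth arrest gene Gadd45a (0.39 ± 0.071, adjusted p = 0.0107) and the mTORC1 inhibitor Ddit4 (0.33 ± 0.085, adjusted p = 0.0385) rose, and each of these 4 genes had no overlap between the groups.

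**Figure D3:**
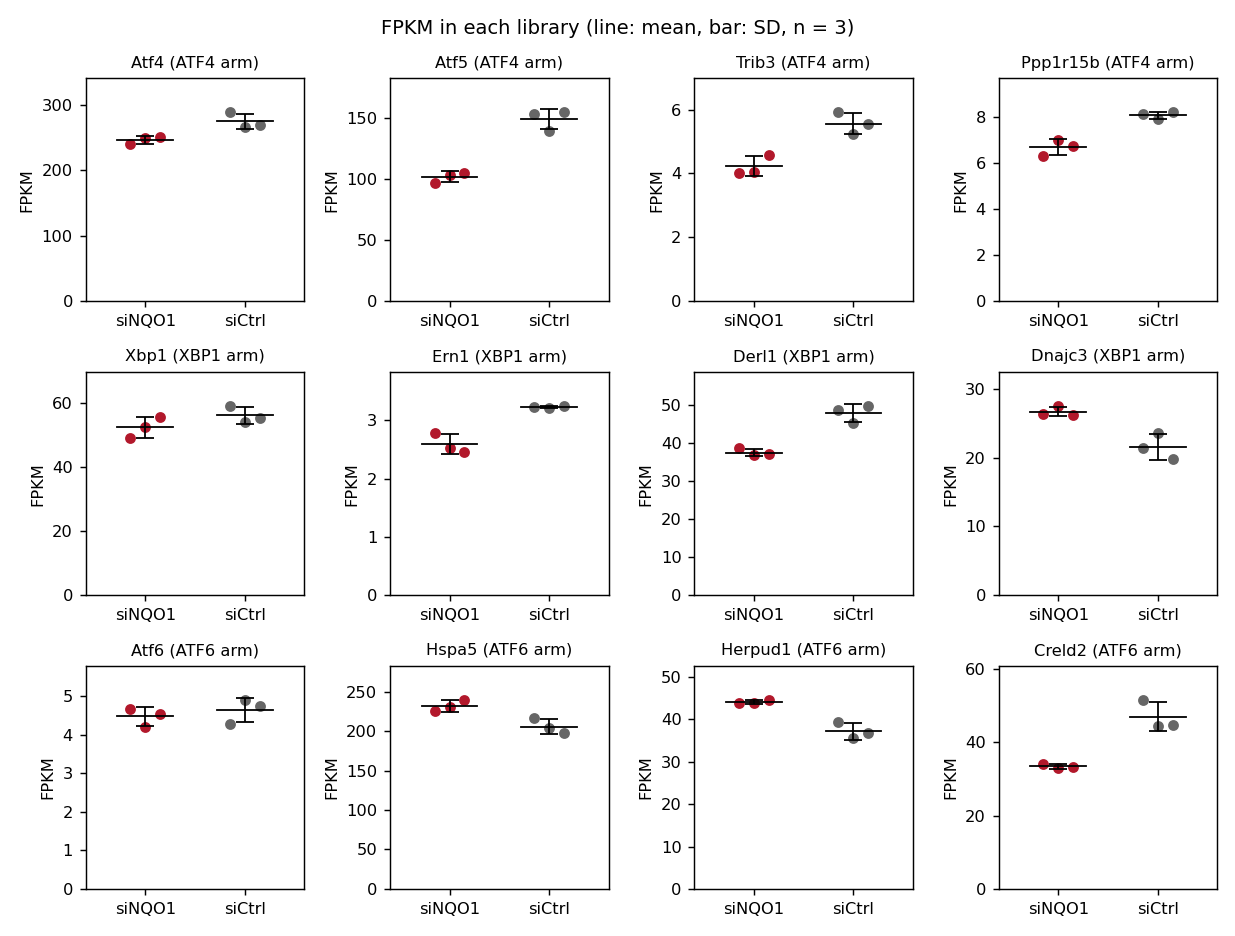
FPKM per library (points) with the mean (line) and SD (bar, n = 3) in siNQO1 (red, left) and siCtrl (gray, right) for the 9 called members and for the factors Atf4, Xbp1 and Atf6. The y axes start at 0. The groups are apart for every called member and for Atf4, and they overlap for Xbp1 and Atf6.

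In the XBP1 arm the sensor and its factor came first. Ern1, which encodes IRE1, had 2.78, 2.53 and 2.46 FPKM in siNQO1, against 3.23, 3.21 and 3.24 FPKM in siCtrl. All knockdown libraries were below the controls, which lay close together, and the gene fell, at a log2 fold change of -0.30 ± 0.081 (SE), adjusted p = 0.0436. Xbp1 had 49.3, 52.5 and 55.9 FPKM in siNQO1, against 59.1, 54.1 and 55.4 FPKM in siCtrl. Its groups overlapped and it was not called (-0.083 ± 0.062, adjusted p = 0.41). Spliced and unspliced Xbp1 were not told apart in these counts.

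Of the targets of XBP1, Dnajc3 rose and Derl1 fell. Dnajc3, a cochaperone of BiP also called p58IPK, which inhibits PERK, had 26.4, 27.5 and 26.3 FPKM in siNQO1, against 21.4, 23.5 and 19.8 FPKM in siCtrl. It was higher in every knockdown library and rose, at a log2 fold change of 0.32 ± 0.070 (SE), adjusted p = 0.0207. Derl1, a derlin of the channel through which misfolded proteins leave the ER, had 38.7, 36.8 and 37.1 FPKM in siNQO1, against 48.7, 45.4 and 49.7 FPKM in siCtrl. It was lower in every knockdown library and fell, at a log2 fold change of -0.34 ± 0.057 (SE), adjusted p = 0.00739. The BiP cochaperone Dnajb9, or ERdj4, had 8.33, 5.87 and 5.55 FPKM in siNQO1, against 6.70, 11.0 and 7.29 FPKM in siCtrl. Its standard error of 0.215 was the largest among the members, siCtrl replicate 2 and siNQO1 replicate 1 were its highest libraries, and its log2 fold change was -0.33 with all libraries (adjusted p = 0.354) and -0.084 without siCtrl replicate 2 (adjusted p = 0.722). The remaining members were not called. They were the cochaperone Dnajb11 (-0.046), the ubiquitin ligase Syvn1 (-0.066) and its partner Sel1l (0.098), and Edem1 (0.016), which passes glycoproteins to degradation, all with overlapping groups.

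Other genes of ER-associated degradation and of IRE1 were read beside this arm, again against 5.27% called higher and 7.38% lower over all genes tested. Of 23 further degradation genes 2 rose and 1 fell, with a median of -0.02. The deglycosylase gene Ngly1 (0.35 ± 0.092, adjusted p = 0.0427) and Ubxn4 (0.31 ± 0.052, adjusted p = 0.00778), whose product recruits the ATPase p97, rose. Of 11 regulators of IRE1 and of Xbp1 splicing 0 rose and 2 fell by edgeR. An unadjusted p under 0.05 was reached by 2 of these 11, against 29.0% of all genes tested. The 2 that fell were Ddx1 (-0.23 ± 0.052, adjusted p = 0.0276), a helicase of the tRNA ligase complex, and Sec16a (-0.21 ± 0.056, adjusted p = 0.0461), which organizes ER exit sites.

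In the ATF6 arm the sensor was again at a low level. Atf6 had 4.68, 4.19 and 4.55 FPKM in siNQO1, against 4.29, 4.90 and 4.75 FPKM in siCtrl. The groups overlapped and the log2 fold change was -0.042 ± 0.085 (SE), adjusted p = 0.785. The chaperones of this arm were among the most abundant members, with Calr (calreticulin) at 788 ± 8.05 FPKM in siNQO1 and 770 ± 53.8 FPKM in siCtrl (SD, n = 3 each).

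Among the other genes of this arm Hspa5 and Herpud1 rose, and Hsp90b1 missed the threshold. Hspa5, which encodes BiP, the main Hsp70 of the ER, had 225, 231 and 239 FPKM in siNQO1, against 217, 204 and 197 FPKM in siCtrl. Every knockdown library was above every control and the gene rose, at a log2 fold change of 0.19 ± 0.051 (SE), adjusted p = 0.0466. Hsp90b1, or GRP94, its Hsp90 counterpart, had 183, 189.8 and 187 FPKM in siNQO1, against 150.4, 178 and 149 FPKM in siCtrl. The groups did not overlap, but siCtrl replicate 2 lay much nearer to the knockdown libraries than the other controls did, and the log2 fold change of 0.24 ± 0.070 (SE), adjusted p = 0.054 did not pass the threshold. Herpud1, a membrane protein that organizes the degradation complex, had 43.8, 43.8 and 44.6 FPKM in siNQO1, against 39.4, 35.6 and 36.7 FPKM in siCtrl. It was higher in each knockdown library and rose, at a log2 fold change of 0.26 ± 0.053 (SE), adjusted p = 0.0177.

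Creld2 fell. This gene, whose product is a disulfide-handling protein of the ER lumen and which carries the ERSE printed above, had 34.2, 33.1 and 33.2 FPKM in siNQO1, against 51.6, 44.6 and 44.9 FPKM in siCtrl. All knockdown libraries lay below all controls, with a log2 fold change of -0.48 ± 0.068 (SE), adjusted p = 0.00422. The other ATF6 members gave values near 0. The disulfide isomerases ran at -0.001 for Pdia3, 0.070 for Pdia4, 0.090 for P4hb and 0.098 for Pdia6 on the log2 scale, with Pdia6 alone above siCtrl in every knockdown library. Pdia6 had 462, 455 and 474 FPKM in siNQO1, against 452, 416 and 443 FPKM in siCtrl. The lectin chaperones Calr and Canx (calnexin) were at 0.046 and 0.066, the Hsp70-like Hyou1 at 0.002, the BiP partner Sdf2l1 at 0.061 and the secreted factor Manf at -0.086. None of these 9 genes was called, with adjusted p from 0.259 to 0.99. Canx had 87.7, 83.6 and 77.0 FPKM in siNQO1, against 71.3, 91.9 and 76.5 FPKM in siCtrl, so that siCtrl replicate 2 was its highest library. Manf had 199, 199.9 and 203 FPKM in siNQO1, against 225, 203 and 217 FPKM in siCtrl, with siCtrl replicate 2 again nearest to the knockdown libraries and inside their range.

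**Figure D4:**
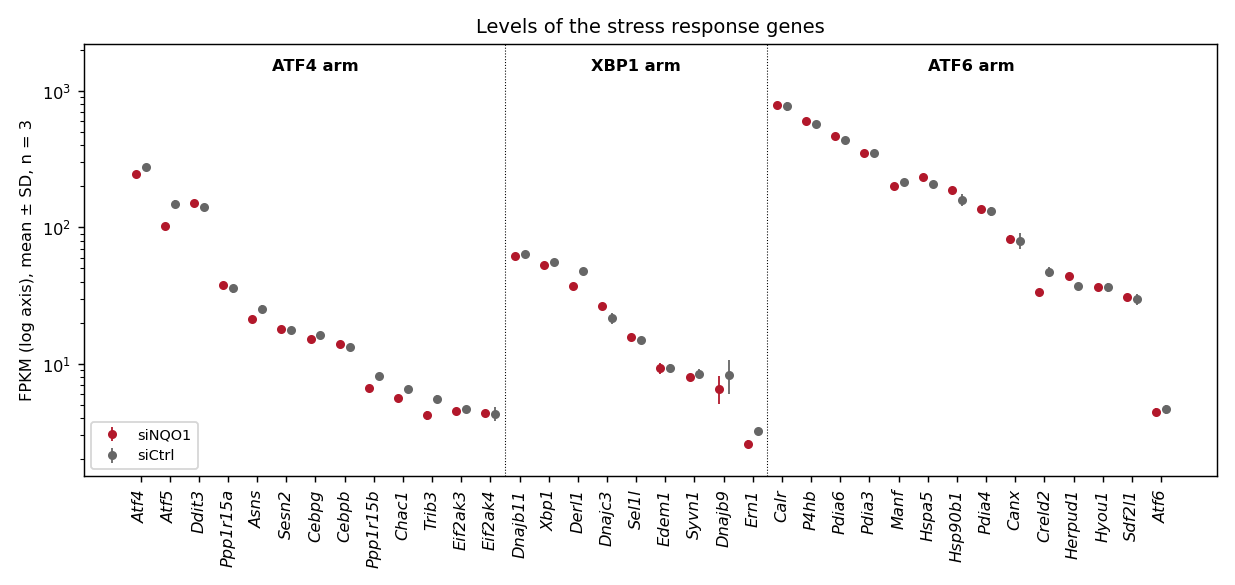
Mean FPKM (log axis) with its SD (bar, n = 3) of the 36 members tested, siNQO1 (red, left of each pair) and siCtrl (gray, right), ordered by level within each arm. The levels run from 2.59 FPKM in siNQO1 for Ern1 to 788 FPKM in siNQO1 for Calr, and the pairs lie close together at this scale.

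Levels per length spread widely among the 36 members tested. Calr, P4hb (602 and 571 FPKM in siNQO1 and siCtrl), Pdia6 (464 and 437) and Pdia3 (348 and 351) were highest, and Ern1 (2.59 and 3.23), Trib3 (4.22 and 5.56), Eif2ak4 (4.39 and 4.31), Atf6 (4.47 and 4.65) and Eif2ak3 (4.55 and 4.69) were lowest. Among the members tested, the sensors were thus the least abundant together with Trib3, and the folding enzymes the most abundant. Summed over the ATF4 arm, FPKM were 607, 636 and 648 in siNQO1 and 732, 677 and 702 in siCtrl, without overlap. The ATF6 arm summed to 3170, 3170 and 3230 FPKM in siNQO1 and 3200, 2970 and 3060 FPKM in siCtrl, with overlap, and the XBP1 arm to 220, 218 and 223 FPKM in siNQO1 and 241, 231 and 229 FPKM in siCtrl, without overlap. Sums follow the most abundant genes, so the ATF4 arm's sum is mostly Atf4, Atf5 and Ddit3. In the XBP1 arm 3 of 9 tested members had no overlap between the groups, against 33.6% of all genes tested. Among them Derl1 averaged 37.5 FPKM in siNQO1 and 47.9 FPKM in siCtrl, and Dnajc3 lay the other way, at 26.7 and 21.6 FPKM. The sum of that arm is thus no sign of a fall across its genes.

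Chaperones and ER genes outside the members were read against the 5.27% called higher and 7.38% called lower over all genes tested. Of 25 other ER chaperones and folding enzymes 1 rose and 2 fell, with a median of 0.040. The disulfide oxidase gene Ero1l had 17.5, 17.2 and 18.2 FPKM in siNQO1, against 14.2, 13.3 and 14.3 FPKM in siCtrl, and rose at a log2 fold change of 0.35 ± 0.061 (SE), adjusted p = 0.00828. Fkbp11 (-0.27 ± 0.055, adjusted p = 0.0172), a prolyl isomerase, and Txndc12 (-0.18 ± 0.048, adjusted p = 0.0471), a thioredoxin-like protein, fell. Of 16 genes of translocation and signal peptide handling 1 rose and 2 fell, with a median of 0.033. The signal peptidase subunit genes moved apart, with Sec11a higher (0.20 ± 0.044, adjusted p = 0.0218) and Spcs1 lower (-0.21 ± 0.052, adjusted p = 0.0312), and Ssr1 of the translocon-associated complex fell (-0.29 ± 0.070, adjusted p = 0.0311). Of 12 genes for ATF6 processing and related factors 0 rose and 1 fell by edgeR. At an unadjusted p under 0.05 there were 2 higher and 3 lower, against 29.0% of all genes tested in either direction. The one called was Creb3l2 (-0.28 ± 0.076, adjusted p = 0.0453), an ER-bound factor that is cut like ATF6. The shares called in these lists lie around those of all genes tested.

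Each library was then left out in turn. Atf5, Creld2 and Derl1 were called in all 6 of these fits, and under all 9 other settings tried. The other 6 called members lost the call in some of them. Without siNQO1 replicate 1, 2 or 3 or siCtrl replicate 3, Hspa5, Herpud1, Ppp1r15b, Trib3 and Dnajc3 were each no longer called, and Trib3 and Dnajc3 were also lost without siCtrl replicate 1. Ern1 was lost without siNQO1 replicate 2 or 3 or siCtrl replicate 1 or 3. The highest adjusted p was 0.158 for Hspa5, 0.0713 for Herpud1, 0.0994 for Ppp1r15b, 0.139 for Trib3, 0.135 for Dnajc3 and 0.141 for Ern1. None of these 6 genes changed direction in any of the 6 fits.

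Leaving out siCtrl replicate 2, the library that stood apart, gave more calls. There 5 members rose and 9 fell, while 17.2% of all genes tested were called higher and 16.1% lower. The 9 called members of the full set were all called again, and 5 were added. Hsp90b1 (0.33, adjusted p = 2.66e-05) and Canx (0.17, adjusted p = 0.0407) rose, and Atf4 (-0.17, adjusted p = 0.00465), Asns (-0.29, adjusted p = 0.000889) and Manf (-0.13, adjusted p = 0.021) fell. Without siNQO1 replicate 1, 2 or 3 or siCtrl replicate 3 the members called were Creld2, Derl1 and Atf5, and also Ern1 in the fit without siNQO1 replicate 1, all lower. The rises of Dnajc3, Hspa5 and Herpud1 thus passed the threshold with all 6 libraries and depended on which libraries entered the fit. Over all genes, 227 of 12644 tested were called higher and 495 lower without siNQO1 replicate 1. Without siNQO1 replicate 2 these were 167 and 351 of 12635, against 654 and 917 of 12420 with all 6 libraries. Calls thus fell over all genes in these fits as well, and the lost rises are not read as a trait of the members.

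**Figure D5:**
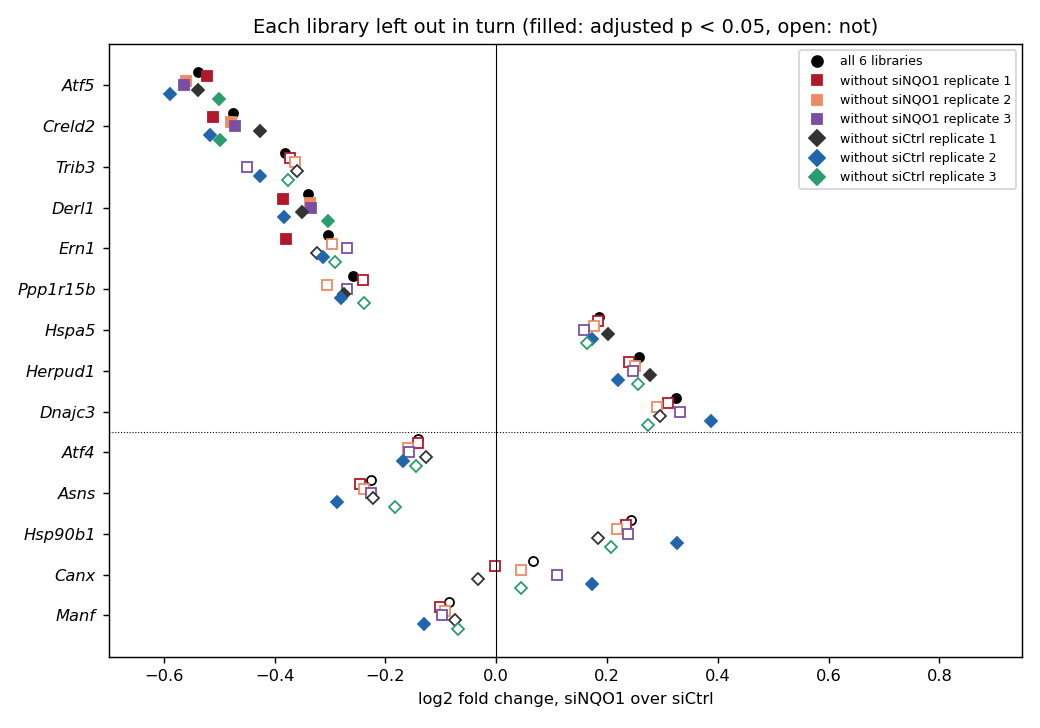
Log2 fold change of siNQO1 over siCtrl (x axis) with all 6 libraries (black circle) and without each siNQO1 library (squares) or siCtrl library (diamonds), filled where the adjusted p was under 0.05. The 9 members called with all libraries stand above the dotted line, and the 5 that were added, among these fits, only without siCtrl replicate 2 below it. Every marker of Atf5, Creld2 and Derl1 is filled, and the values of Canx lie on both sides of 0.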

How the data were processed

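Libraries of polyadenylated RNA, 3 from siNQO1 and 3 from siCtrl PC12 cells, were sequenced by the authors. They removed reads holding more than 2 ambiguous bases, trimmed the rest and aligned them with TopHat2 to RGSC6 with up to 4 mismatches. Tools named in the submitters' processing notes are bcl2fastq, TopHat2 and edgeR. Deposited counts are whole numbers of uniquely mapped reads in each gene, without normalization. FPKM, as deposited, are the same reads divided by the authors by transcript length and by mapped reads. No counting tool or strand setting is given in the sources used here, and overlapping and antisense genes may therefore share reads.

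Groups came from the labels. Counts were fitted in R 4.3.3 with edgeR 4.0.16: filterByExpr with the groups, TMM scaling, glmQLFit and glmQLFTest, all 6 libraries and no block. P-values were adjusted by Benjamini-Hochberg over the 12420 genes tested, and an adjusted p under 0.05 was called. The depth of 28873824 to 39467230 reads per library sets the precision of low genes. The test was checked on simulated data.

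All 38 members are named, with FPKM in every library for the called ones and for the sensors, factors and marker targets. From each further list of the same pathways up to 4 called genes of each direction are named. Some genes that this rule selects are not reported here. Members and lists were chosen with earlier results of these data known, and their counts and medians carry no test. Alternatives were RLE scaling, library size alone, genes with any count, 1 CPM in 3 libraries, DESeq2 1.42.0, limma 3.58.1 (voom, and the log2 of FPKM after adding 1 or 0.1), a block for the replicate number, and fits with 1 library left out. Promoter windows are those of RefSeq on GRCr8, whose coordinates were used with no conversion from RGSC6.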

Additional observations from a re-analysis of the deposited data

How the results depend on the processing

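Of the members, Atf5, Creld2 and Derl1 kept the call under every scaling, filter, tool and left-out library tried. With each library left out in turn, members called higher ranged from 0 to 5 and lower from 3 to 9, with a median log2 fold change from -0.043 to 0.002. The ranges were 1 to 5 lower in the ATF4 arm, 0 to 1 higher and 1 to 2 lower in the XBP1 arm, and 0 to 4 higher and 1 to 2 lower in the ATF6 arm. Over all genes 167 to 2164 were called higher and 351 to 2036 lower, with the top of both ranges reached without siCtrl replicate 2. Fewer libraries were fitted in each of these, and the cause of the differences was not tested.

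Among the other settings, the ATF4 arm had 5 lower with a minimum of 1 CPM in 3 libraries. Of all genes 1165 of 11072 tested were called lower there, against 917 of 12420 in the main fit. The XBP1 arm had 1 lower with genes of any count and with log2(FPKM + 1) or log2(FPKM + 0.1), and the ATF6 arm had 1 higher with either FPKM setting. Trib3 (adjusted p = 0.0525) and Ern1 (0.0543) were not called with genes of any count, and Hspa5, Ppp1r15b and Ern1 not on either FPKM scale. Hsp90b1 was called with genes of any count (0.0294), by DESeq2 (0.0128) and by limma voom (0.0445). Asns was called under 5 of the 9 settings and Atf4 with a minimum of 1 CPM (0.0472). With the replicate number as a block, 3 members fell in all, 1 in the ATF4 arm and 1 in the XBP1 arm. Of all genes 610 were called higher and 740 lower under the block, against 654 and 917 in the main fit. Trib3 (0.0611), Ppp1r15b (0.0524), Ern1 (0.0697) and Hspa5 (0.0812) lost the call under the block and Hsp90b1 (0.0453) gained it. For the pairing, libraries with the same number deviated from their group means with correlations of -0.0383, 0.161 and 0.0568. Not every library correlated best with its own number. With 3 libraries a group such correlations cannot decide whether the numbers mark pairs. The paper names a paired t-test for its RT-qPCR of NQO1 and no pairing for edgeR, and the main fit took the numbers as unpaired.

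Members near 0 changed sign. Hyou1 was at -0.002 with RLE scaling and DESeq2, -0.004 with library size alone, -0.011 with a minimum of 1 CPM and -0.01 on either FPKM scale. Pdia3 was at 0.003 with genes of any count, and Edem1 at -0.001 and -0.002 with log2(FPKM + 1) and log2(FPKM + 0.1). With libraries left out, ranges crossed or reached 0 for Edem1 (-0.058 to 0.08), Hyou1 (-0.057 to 0.036), Canx (-0.033 to 0.172), Sesn2 (-0.004 to 0.068), Eif2ak4 (-0.009 to 0.113), Calr (-0.01 to 0.074), Pdia3 (-0.021 to 0), Sdf2l1 (-0.02 to 0.117) and Eif2ak3 (-0.071 to 0.005). None of these members was called with all 6 libraries in edgeR.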

Other observations

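Heat shock genes outside the ER, mostly chaperones of the cytosol and with the mitochondrial chaperonin gene Hspd1 and the factor Hsf1 among them, gave 0 rises and 2 falls among 11 genes tested in edgeR, with 2 higher and 3 lower at an unadjusted p under 0.05 and a median log2 fold change of 0.021. Of all genes tested 5.27% were called higher and 7.38% lower, and 29.0% had an unadjusted p under 0.05. Hsp90ab1, the constitutive cytosolic Hsp90, had 667, 671 and 691 FPKM in siNQO1, against 870.1, 753 and 808 FPKM in siCtrl, with no overlap, and fell at a log2 fold change of -0.25 ± 0.064 (SE), adjusted p = 0.0396. Dnajb1, an Hsp40 cochaperone, averaged 50 ± 1.35 FPKM in siNQO1 and 60.5 ± 3.74 FPKM in siCtrl (SD, n = 3 each) and also fell (-0.26 ± 0.059, adjusted p = 0.0248). Hsp90b1 of the ER lay on the other side of 0, at 0.24, without passing the threshold, and the difference between these and the ER genes was not tested.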
